A study of Mus musculus with 24 samples.

Results

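Unstressed females (NSF) were compared with unstressed males (NSM) for microRNAs (miRs) of the nucleus accumbens (NAc), a region of the ventral striatum that serves reward and motivation. The 6 libraries, 3 of each sex, were all the small RNA libraries of unstressed mice among the 24 libraries of the series. NSM and NSF were intact C57BL/6J mice, 9 weeks old by the labels, that were not exposed to subchronic variable stress (SCVS), and all females were in estrus or proestrus, so that females in the other stages of the cycle are not represented. For each library, punches of 5 mice, 10 in all, were pooled before RNA was extracted. Stressed males (SM) and stressed females (SF), 3 libraries each, served as a second pair of sexes. The file listed 1180 miR precursors, of which 500 had enough reads to be tested.

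A miR is cut from a hairpin precursor and guides the silencing of mRNAs that pair with its seed, bases 2 to 8 of the mature strand. Precursors often lie in clusters that are transcribed together, or in introns of a host gene whose transcript they share. mir-206 and mir-1 are best known from muscle, the mir-200 family from epithelium, and the Dlk1-Dio3 miRs from an imprinted locus that is active in brain.

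The mature sequences below, from RefSeq (table of build GRCm38.p6) with the seed in capitals, belong to the precursors on which the results turn. Counts were given under precursor names, so that the 2 arms of a hairpin were not separated, although the methods name a mature miR annotation, and which of these the counts rest on could not be settled. The first set holds precursors described one by one, mir-206 first, and mir-5099, mir-151 and mir-328 are named only.
miR-206-3p: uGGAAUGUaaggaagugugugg
miR-206-5p: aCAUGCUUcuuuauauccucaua
miR-1a-1-5p: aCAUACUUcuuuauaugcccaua
miR-341-3p: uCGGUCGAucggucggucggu
miR-487b-5p: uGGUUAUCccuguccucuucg
miR-1981-5p: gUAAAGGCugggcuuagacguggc
miR-325-3p: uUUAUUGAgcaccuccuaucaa

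The second set shows shared seeds within the mir-200b cluster, where miR-200b-3p and miR-429-3p have one seed and the 5′ arms of mir-200a and mir-200b another.
miR-200b-3p: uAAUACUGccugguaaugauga
miR-429-3p: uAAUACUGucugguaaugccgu
miR-200a-3p: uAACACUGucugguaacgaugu
miR-200a-5p: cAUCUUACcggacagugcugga
miR-200b-5p: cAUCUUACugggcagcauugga

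The third set comes from the introns of Clcn5 on the X chromosome, where mir-500 shares the seed of its 3′ arm with mir-501 and that of its 5′ arm with mir-362.
miR-188-5p: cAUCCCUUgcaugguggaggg
miR-500-3p: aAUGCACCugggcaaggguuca
miR-501-3p: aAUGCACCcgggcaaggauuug
miR-500-5p: aAUCCUUGcuaucugggugcuuagu
miR-362-5p: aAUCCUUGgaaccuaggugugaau

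Between 5086554 and 6738555 reads per NSM library and between 7373536 and 10588174 per NSF library fell on miR precursors, so that every female library was deeper than every male library. The 10 miRs with the most reads took 32.7% to 35.5% of each library. The mRNA of the same pools matched the sex labels, as Xist had a level of 2.38 to 3.09 CPM in NSM and of 1075 to 1283 CPM in NSF. All 9 listed NAc markers were detected, none of them called. Of these, Pdyn was lower in NSF by -0.37 on the log2 scale, or 1.29-fold, with an unadjusted p of 0.00358 (limma), just under the minimum fold of 1.3. Of 18593 tested genes 5.31% were called, 4.17% higher and 1.15% lower in NSF. The cortical marker Slc17a7, a glutamate transporter, stood apart in 2 of the unstressed pools. Its mRNA level was 12.0, 4.02 and 16.4 CPM in NSM and 209, 16.4 and 297.2 CPM in NSF 1, 2 and 3, and Tbr1 followed with 0.833 to 2.76 CPM in NSM and 22.7, 2.33 and 31.7 CPM in NSF. In NSF 2 both markers were near the level of NSM. The second pair of sexes was not even in Slc17a7 either, with 39.5, 119 and 162 CPM in SM and 37.0, 34.5 and 93.2 CPM in SF. Every stressed pool thus lay above every NSM pool, and SF differed from SM by -0.90 on the log2 scale, which was not called. Their part in the miR differences was not tested beyond the fits given below. As these are bulk samples, more cells of a type and more RNA per cell cannot be told apart.

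Of the 500 tested miRs, 38 (7.60%) were called as different between NSF and NSM (unadjusted p under 0.05 with a fold of 1.3 or more), 29 higher in NSF (5.80%) and 9 lower (1.80%). Of these 38, 29 had groups that did not overlap, as had 116 of all 500 (23.2%), and 81 miRs (16.2%) had an unadjusted p under 0.05 at any fold. In limma with Benjamini-Hochberg adjustment, 5 miRs (1.00%) had an adjusted p under 0.05, and 2 of them, mir-206 and mir-5099, also reached the fold. The other 3 were mir-341 and mir-487b, lower in NSF, and mir-151, higher in NSF. Of the 38, 8 had a mean under 10 reads (mir-6934, mir-7010, mir-1951, mir-7059, mir-466n, mir-8120, mir-3104 and mir-6959) and are only named, which leaves 30 of 432 (6.94%), of which 24 were higher and 6 lower in NSF. With quantile normalization, 25 of 40 called miRs were higher in NSF, as were 30 of 60 when every miR with a read was tested. When the log2 level of Slc17a7 in the same pool was added to the model, 40 miRs were called, 17 of them among the 38. With NSF 2 as the only female library, 29 were called, 14 of them among the 38.

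**Figure D1:**
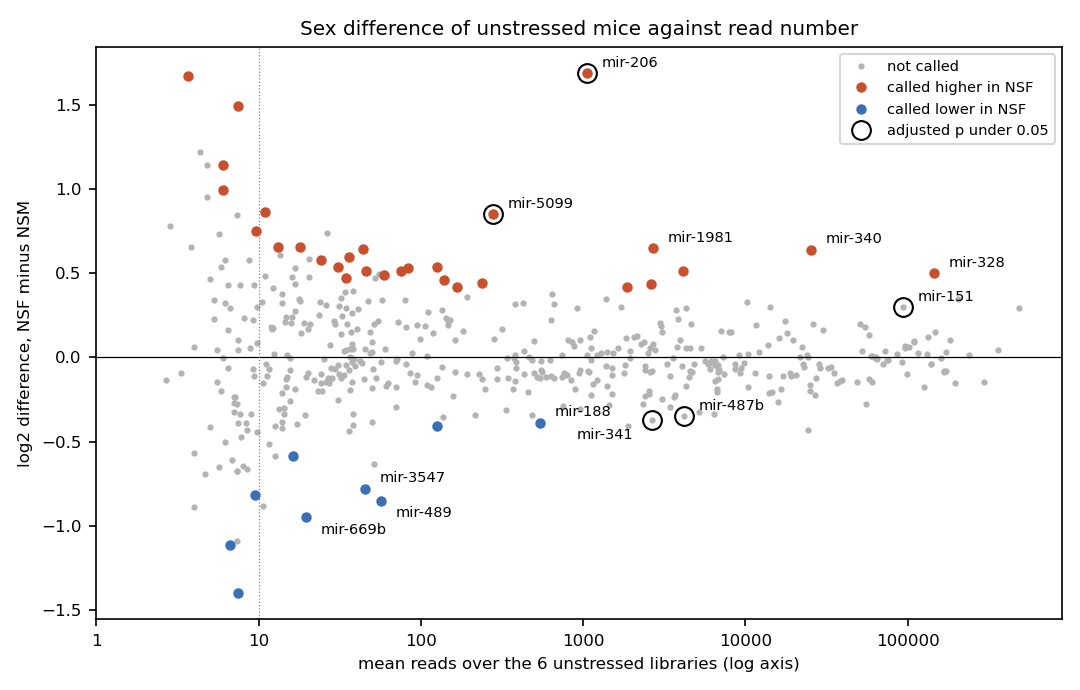
Each point is 1 of the 500 tested miRs, with its mean reads over the 6 unstressed libraries (log axis) against its log2 difference, NSF minus NSM. The called miRs are colored and the 5 with an adjusted p under 0.05 are circled, and of the 9 miRs with a difference beyond 1 on the log2 scale 8 lie left of the dotted line at 10 reads, mir-206 being the other.

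mir-206, a miR of skeletal muscle that is also found in brain, lies on the plus strand at chr1:20669091-20669163 (NCBIM37), where no gene is annotated on its strand. Its level was 67.8, 73.4 and 48.0 CPM (reads scaled to library size with TMM factors) in NSM and 188, 260.4 and 162 CPM in NSF. Every female library lay above every male library, and NSF 2 was the highest of all. The difference was 1.69 ± 0.22 on the log2 scale (SE), or 3.22-fold, at an adjusted p of 0.000916 (limma, Benjamini-Hochberg), and it was 2.17 with Slc17a7 in the model and 2.07 with NSF 2 alone. mir-206 was the one miR whose adjusted p stayed under 0.05 without NSM 1, without NSM 3 or without NSF 2.

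The muscle miRs other than mir-206 and mir-1a-1 were not called. The neighbor of mir-206 in the same cluster, mir-133b at chr1:20672850 and beyond, had 0.446 to 1.34 CPM in NSM and 0.773 to 0.870 CPM in NSF. Of the 8 listed muscle miRs, 7 were tested and 2 were called, mir-206 and mir-1a-1, against 7.60% of all tested miRs. The other 5 tested, mir-133a-1, mir-133a-2, mir-133b, mir-208b and mir-499, had log2 differences of -0.00 to 0.26, and the median of the 7 was 0.15 against -0.02 over all tested miRs. The summed level of the list was 339 to 461 CPM in NSM and 610 to 716 CPM in NSF. This sum includes the called mir-206 and mir-1a-1, so that it does not show a rise of the other 5. In the mRNA of the same pools the muscle regulators Myod1 and Myog had 0 to 2 reads, and Ckm, muscle creatine kinase, had 1 to 4. Of 15 muscle genes looked up, 9 were tested, of which Actn3 and Pvalb were called higher and Myh2 lower in NSF. Over all tested genes 5.31% were called. Pvalb had 1.54 to 2.46 CPM in NSM and 4.17, 2.11 and 4.82 CPM in NSF 1, 2 and 3. It was thus high in the pools in which Slc17a7 was high. The part of these genes in the mir-206 difference was not tested.

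mir-1a-1, on the plus strand at chr2:180123753-180123829, had a level of 302, 354 and 263 CPM in NSM and 397, 422 and 414 CPM in NSF. The groups did not overlap. The difference was 0.43 ± 0.11 on the log2 scale and had an adjusted p of 0.0878 (limma, Benjamini-Hochberg).

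mir-5099, whose hairpin lies at chr12:37542792-37542865 on the plus strand with no gene annotated there, had 24.8, 34.7 and 21.5 CPM in NSM and 44.9, 51.0 and 46.9 CPM in NSF. All female libraries were higher than all male libraries. It differed by 0.85 ± 0.15 on the log2 scale, with an adjusted p of 0.0142 (limma, Benjamini-Hochberg), and over the alternative fits the adjusted p reached 0.11.

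mir-151, in an intron of Ptk2, the gene of focal adhesion kinase, was among the more abundant miRs, at 12161, 11807 and 10641 CPM in NSM and 14231, 14606 and 13682 CPM in NSF. The groups did not overlap, but the log2 difference of 0.30 ± 0.07 (adjusted p = 0.0406, limma with Benjamini-Hochberg) stayed under the minimum fold of 1.3. Ptk2 mRNA differed by 0.02 on the log2 scale, with an unadjusted p of 0.69 (limma).

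**Figure D2:**
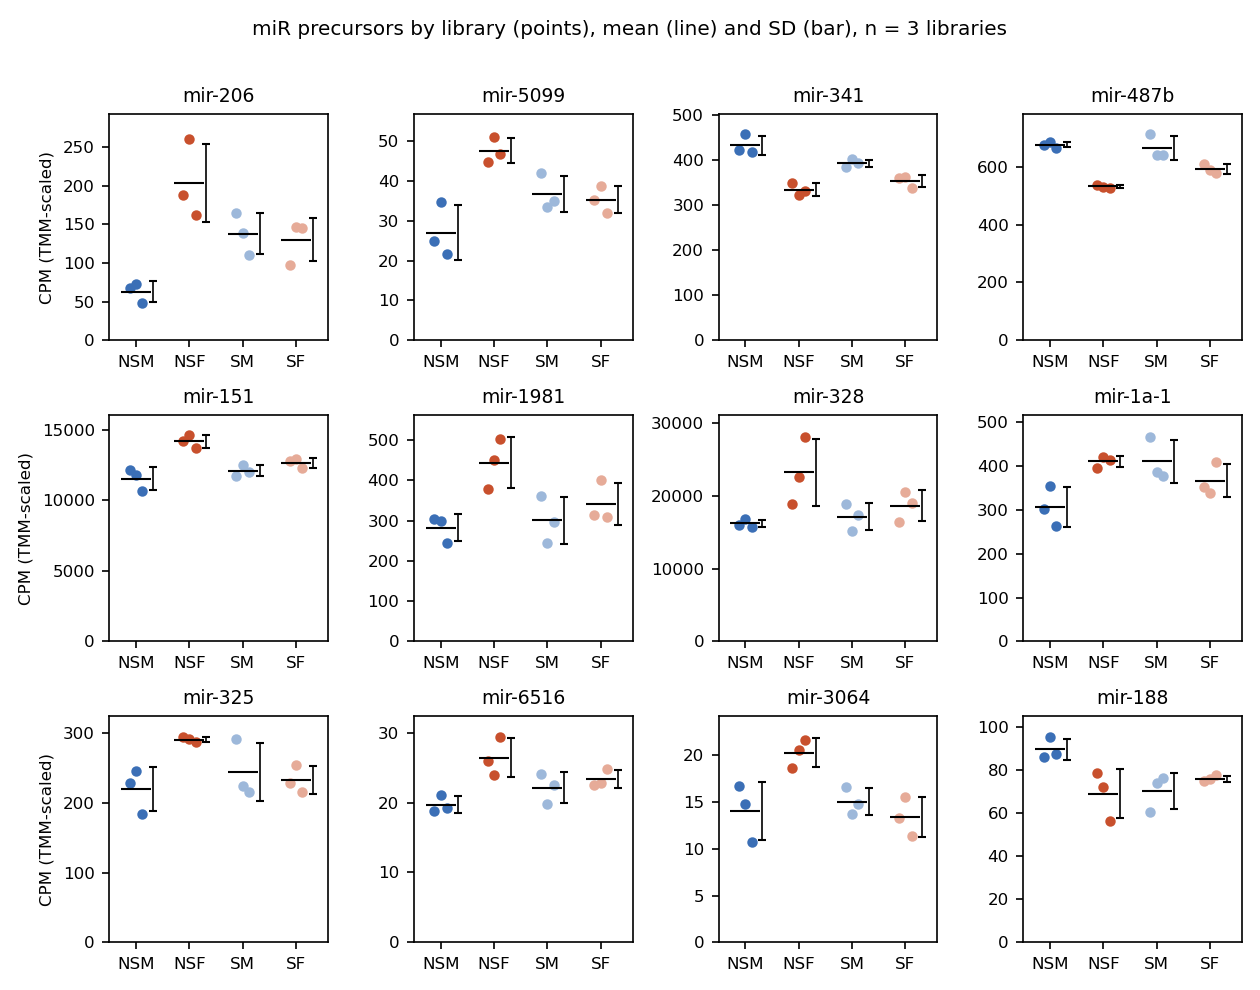
Levels of 12 miRs, in CPM, in each of the 12 small RNA libraries, with points for libraries, lines for means and bars for the SD over 3 libraries. In all 12 panels the NSM and NSF points do not overlap, while for mir-206 the stressed groups do, at 111 to 165 CPM in SM and 97.6 to 147 CPM in SF.

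The next miRs by p were called without reaching an adjusted p of 0.05. mir-1981, in an intron of Mosc2, had 304, 299.6 and 243 CPM in NSM and 377, 452 and 502 CPM in NSF, a log2 difference of 0.65 ± 0.15 (adjusted p = 0.0570, limma with Benjamini-Hochberg). mir-328, the most abundant miR called, antisense to Elmo3 at chr8:107832264-107832360, had 16067, 16802 and 15798 CPM in NSM and 18936, 22652 and 28155 CPM in NSF, a log2 difference of 0.50 ± 0.12 (adjusted p = 0.0720, limma with Benjamini-Hochberg). For both, NSF 3 was highest and the groups did not overlap, and without NSF 3 the log2 difference of mir-328 was 0.36, under the minimum fold.

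mir-3064, in an exon of Ddx5, an RNA helicase of miR processing, had 16.6, 14.8 and 10.7 CPM in NSM and 18.6, 20.5 and 21.6 CPM in NSF. mir-1306, in an exon of Dgcr8, the partner of Drosha in cutting hairpins, had 14.5 to 17.4 CPM in NSM and 18.6 to 26.3 CPM in NSF. The groups did not overlap for either. The mRNAs had log2 differences of -0.09 for Ddx5 and -0.13 for Dgcr8, with unadjusted p values of 0.11 and 0.0205 (limma), and were not called. For both mRNAs the groups did not overlap, with NSF below NSM.

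mir-6516, in an exon of the noncoding gene 2810008D09Rik, had 18.7, 21.1 and 19.2 CPM in NSM and 25.96, 24.0 and 29.4 CPM in NSF. The host RNA was called too, at a log2 difference of 0.42 against 0.42 for the miR, with an adjusted p of 0.31 (limma, Benjamini-Hochberg). mir-6236, for which no position was set, had 3.83 to 5.05 CPM in NSM and 6.96 to 7.62 CPM in NSF.

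mir-489 and its host gene Calcr, the calcitonin receptor, were both lower in NSF. mir-489 had 11.1, 7.09 and 14.5 CPM in NSM and 6.63, 7.15 and 3.99 CPM in NSF, and Calcr mRNA had 14.8, 7.80 and 14.3 CPM and 6.76, 7.42 and 5.31 CPM. In both assays NSM 2 lay nearest to the females, and the groups overlapped for the miR and not for the mRNA (19.5% of tested genes did not overlap). The log2 differences were -0.85 for the miR and -0.88 for the mRNA, with adjusted p values of 0.22 and 0.15 (limma, Benjamini-Hochberg). With Slc17a7 in the model the log2 difference of mir-489 was -0.38, and it was not called. mir-653, from the same gene, had a log2 difference of -0.63 with an unadjusted p of 0.11 (limma).

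The remaining called miRs with at least 10 reads were mir-6900, mir-669c, mir-3087, mir-190b, mir-5129, mir-340, mir-6929, mir-669l, mir-6979, mir-6997, mir-467a-7 and mir-6951 among the higher, besides mir-325, mir-200b and mir-200a, and mir-3547, mir-669b, mir-378c and mir-1927 among the lower, besides mir-188. Their adjusted p values reached 0.30 (limma, Benjamini-Hochberg). The most abundant was mir-340, in an intron of Rnf130, with 2626, 3471 and 2048 CPM in NSM and 3650, 3980 and 4849 CPM in NSF. Its groups did not overlap, and Rnf130 mRNA had a log2 difference of 0.03. mir-378c was the 1 called member of its family, whose most abundant precursor, mir-378a, differed by 0.03 on the log2 scale.

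None of the 10 miRs with the most reads was called. let-7b, the first of them, had 53015 to 64844 CPM in NSM and 66858 to 79140 CPM in NSF, a log2 difference of 0.29 (adjusted p = 0.17, limma with Benjamini-Hochberg). mir-139 had a log2 difference of 0.35 with an adjusted p of 0.17 (limma, Benjamini-Hochberg), and its groups overlapped. None of the other 8 of the 10 most abundant precursors had an unadjusted p under 0.05, among them mir-128-1 at 0.05 and mir-29b-2 at -0.15 on the log2 scale. Of the 194 tested miRs with a mean over 1000 reads, 7 (3.61%, against 7.60% of all tested miRs) were called, all higher in NSF, as were 29 of the 38 in all.

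In most seed families no member was called. None of the 14 let-7 precursors was called, at a median log2 difference of -0.01. Nor was any of the 4 mir-29, 3 mir-124, 6 mir-181, 3 mir-9 or 13 mir-344 precursors, with median log2 differences of -0.13, -0.08, -0.07, 0.00 and -0.02. Cell type lists for neurons (13 tested), myeloid cells (5 tested) and pituitary or hypothalamus (4 tested) held no called miR either. All 6 tested members of the family of mir-25, mir-92 and mir-363 lay above 0, at a median of 0.31, but none had an unadjusted p under 0.05 (limma).

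mir-204 and mir-211, which share a family and are abundant in choroid plexus and pigmented cells, were both lower in NSF at an unadjusted p under 0.05 (limma), with log2 differences of -0.24 and -0.34 that stayed under the minimum fold. Between SF and SM both differences were above 0, at 0.22 and 0.19, and the interaction was called for both without an adjusted p under 0.05 (limma, adjusted p = 0.42 for each, Benjamini-Hochberg). mir-211 had 84.3, 75.9 and 72.6 CPM in NSM and 54.2, 64.7 and 65.2 CPM in NSF, and mir-204 had 436 to 525 CPM and 372 to 422 CPM. Ttr mRNA, the choroid plexus marker, was 66.1 CPM in NSM 1 and 0.616 to 2.49 CPM in the other 5 pools. NSM 1 was also the highest library for both miRs, while NSM 2 and NSM 3 still lay above every female library. Of the 14 tested miRs of the choroid plexus and ependyma list 2 were called, against 7.60% of all tested miRs, and 11 were above 0, against 235 of 500. The summed level of that list was 950 to 1164 CPM in NSM and 963 to 1243 CPM in NSF, and its part in the mir-204 and mir-211 difference was not tested.

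The mir-200b, mir-200a and mir-429 hairpins, whose sequences are given above, lie within an intron of Ttll10 on the minus strand of chromosome 4 (mir-200b at chr4:155429790-155429859). mir-200b had 10.6, 6.32 and 8.19 CPM in NSM and 10.4, 11.5 and 14.0 CPM in NSF. mir-200a had 33.7, 20.5 and 28.01 CPM in NSM and 27.8, 42.5 and 41.0 CPM in NSF. The groups overlapped in both, as NSM 1 exceeded NSF 1, and so did NSM 3 for mir-200a. The log2 differences were 0.51 and 0.44, with adjusted p values of 0.19 and 0.30 (limma, Benjamini-Hochberg), and that of mir-429 was 0.22 and not called. With Slc17a7 in the model neither mir-200b nor mir-200a was called, at 0.37 and 0.34.

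In stressed mice SF exceeded SM by 0.54 for mir-200b and by 0.46 for mir-200a on the log2 scale. The stressed libraries did not enter the means of NSF and NSM, but they helped set the spread used in both tests. mir-200b had 7.56 to 8.92 CPM in SM and 11.7 to 13.2 CPM in SF, with an unadjusted p of 0.00435 (limma), and the groups did not overlap. Of all tested miRs, 26 were called between SF and SM (5.20%), 19 higher (3.80%) and 7 lower in SF (1.40%). None had an adjusted p under 0.05 in limma, against 40 of 500 at an unadjusted p under 0.05. The epithelial genes Epcam and Cdh1 had 3 to 14 reads per unstressed mRNA library, and the ciliary gene Foxj1 had 6.21 to 9.15 CPM in NSM and 6.58 to 10.1 CPM in NSF.

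Markers of ciliated ependyma, looked up after the miRs were seen, were called higher in SF than in SM. Foxj1 mRNA was 5.14 CPM in SM and 9.12 CPM in SF on average, a log2 difference of 0.80 with an unadjusted p of 0.00264 (limma). Tmem212 and Ccdc153 were called higher too, at 1.02 and 0.89. The adjusted p values were 0.11, 0.20 and 0.19 (limma, Benjamini-Hochberg). How many of all genes were called between SF and SM was not counted. Of the 14 tested miRs of the choroid plexus and ependyma list, 4 were called higher in SF, against 3.80% of all tested miRs. These were mir-200b and mir-200a themselves and mir-34b and mir-34c of ciliated cells, the latter at 0.61 and 0.81 on the log2 scale. The list had 12 miRs above 0 and 2 below it. The 2 below were mir-449a and mir-449c, of the family of mir-34b and mir-34c, at a median of -0.33. The part of these mRNAs and miRs in the mir-200b and mir-200a difference of stressed mice was not tested.

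On the X chromosome 38 of 81 placed precursors were tested, of which mir-325 was called higher and mir-188 lower in NSF (5.26%, against 7.67% of the 404 tested on autosomes). These X miRs lay mostly below 0, with 9 of 38 above it and a median of -0.12, while 197 of 404 autosomal miRs were above 0 at a median of -0.00. The 38 do not hold mir-92a-2, let-7f-2, mir-450a-1, mir-450a-2 and mir-1264, which were tested as members of X clusters. Of those left out, mir-1264 lay below 0 and the others above it, so that the 38 overstate the share below 0. Relative to the NSM mean, the median X miR was at 0.01, -0.02 and -0.02 on the log2 scale in NSM and at -0.14, -0.08 and -0.09 in NSF. All 3 female libraries lay below the 3 male libraries. The same held on chromosomes 12, 13 and 17, whose median differences were -0.06, -0.10 and -0.10. On chromosomes 5 and 11 the female libraries lay above the male ones, at 0.02 and 0.11, so that such a separation was not particular to the X chromosome. Across the alternative fits the X median ranged from -0.15 to -0.08, and in stressed mice it was -0.02.

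The 5 hairpins in introns of Clcn5, a chloride transporter gene, all had negative differences, and 3 passed an unadjusted p of 0.05. mir-188, at chrX:6825115-6825182 on the minus strand, had 85.9, 95.0 and 87.5 CPM in NSM and 78.6, 72.1 and 56.2 CPM in NSF, a log2 difference of -0.39 ± 0.12 (adjusted p = 0.17, limma with Benjamini-Hochberg). mir-500 had 147, 143 and 165 CPM in NSM and 119, 132 and 116 CPM in NSF. mir-532, the most abundant of the cluster, had 2046 to 2233 CPM in NSM and 1703 to 2028 CPM in NSF. For these 3 the groups did not overlap and the unadjusted p was under 0.05 (limma), whereas mir-362 and mir-501 differed by -0.11 and -0.19 and did not pass.

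The median of the Clcn5 miRs was -0.21 against -0.02 over all tested miRs, and between -0.28 and -0.15 under the alternatives. Clcn5 mRNA had 20.02 to 21.5 CPM in NSM and 17.3 to 20.5 CPM in NSF, a log2 difference of -0.13 with an unadjusted p of 0.0645 (limma). In stressed mice the median of the 5 miRs was -0.02. The mir-188 call was lost in 8 of 20 alternative fits. Among these were the fits without NSM 2 and without NSF 3, at log2 differences of -0.34 and -0.25, and the one with Slc17a7, at -0.36.

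**Figure D3:**
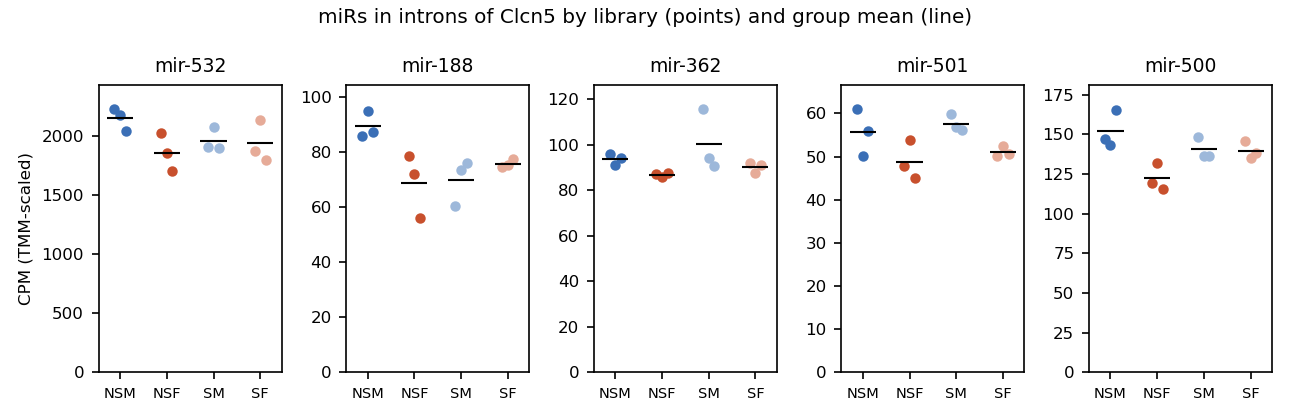
Levels of the 5 Clcn5 miRs, in CPM, by library, with points for libraries and lines for means of 3 libraries. The NSF points lie below the NSM points for mir-532, mir-188, mir-362 and mir-500 and overlap them for mir-501, and the SM and SF points overlap in every panel but that of mir-501.

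The 5 hairpins in introns of Htr2c, the serotonin 2C receptor gene, had a median log2 difference of -0.18 in the range of -0.23 to -0.04, and none had an unadjusted p under 0.05, while Htr2c mRNA differed by -0.04 on the log2 scale. Of the 7 tested hairpins of the cluster of mir-322 and mir-503, 2 were above 0, mir-450a-1 and mir-450a-2, and the median was -0.05 with none called. The 4 tested members of the X cluster from mir-106a to mir-363 had a median of 0.18, with 2 above 0, and mir-421, in an intron of the noncoding gene B230206F22Rik, had a log2 difference of 0.20. mir-221 had 3971 to 4390 CPM in NSM and 3352 to 3844 CPM in NSF, a log2 difference of -0.22 with an unadjusted p of 0.00826 (limma). mir-325, in an intron of the noncoding gene 5330434G04Rik, was higher in NSF, with 228, 245 and 184 CPM in NSM and 294, 291 and 286 CPM in NSF. Its log2 difference of 0.42 had an adjusted p of 0.14 (limma, Benjamini-Hochberg). None of the 8 host genes of X miRs was called in the mRNA. Fgf13 had an unadjusted p of 0.00621 (limma) at a log2 difference of 0.19, under the minimum fold.

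In the imprinted Dlk1-Dio3 region of chromosome 12, 47 of 59 listed precursors were tested and none was called, but the 2 miRs with an adjusted p under 0.05 and a negative difference both came from it. mir-341, in an intron of the noncoding gene Rian at chr12:110849710-110849805, had 423, 459 and 419 CPM in NSM and 350, 323 and 332 CPM in NSF. mir-487b, at chr12:110965543-110965624, had 678, 686 and 668 CPM in NSM and 538, 532 and 528 CPM in NSF. For both miRs every female library lay below every male library. The log2 differences were -0.37 and -0.35, with adjusted p values of 0.0142 and 0.0147 (limma, Benjamini-Hochberg), which rose to 0.10 and 0.24 with Slc17a7 in the model. Neither was under 0.05 without NSM 1, without NSM 3, without NSF 2 or without NSF 3.

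In stressed mice mir-341 and mir-487b had log2 differences of -0.16 and -0.17, with unadjusted p values of 0.0364 and 0.0213 (limma). The stressed libraries did not enter the means of NSF and NSM. All 12 libraries set the spread used in both tests, so that the p values are not independent of the first ones. Of the 47, 12 were above 0, against 235 of all 500, and the median was -0.06, against -0.02. At an unadjusted p under 0.05, 6 were lower in NSF (mir-341, mir-487b, mir-431, mir-380, mir-544 and mir-154) and 2 were higher (mir-539 and mir-485). Over all tested miRs 81 of 500 (16.2%) passed that threshold, a share near that of the region. The most abundant of the region, mir-434, mir-381 and mir-411, differed by -0.01, -0.01 and 0.04 on the log2 scale.

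**Figure D4:**
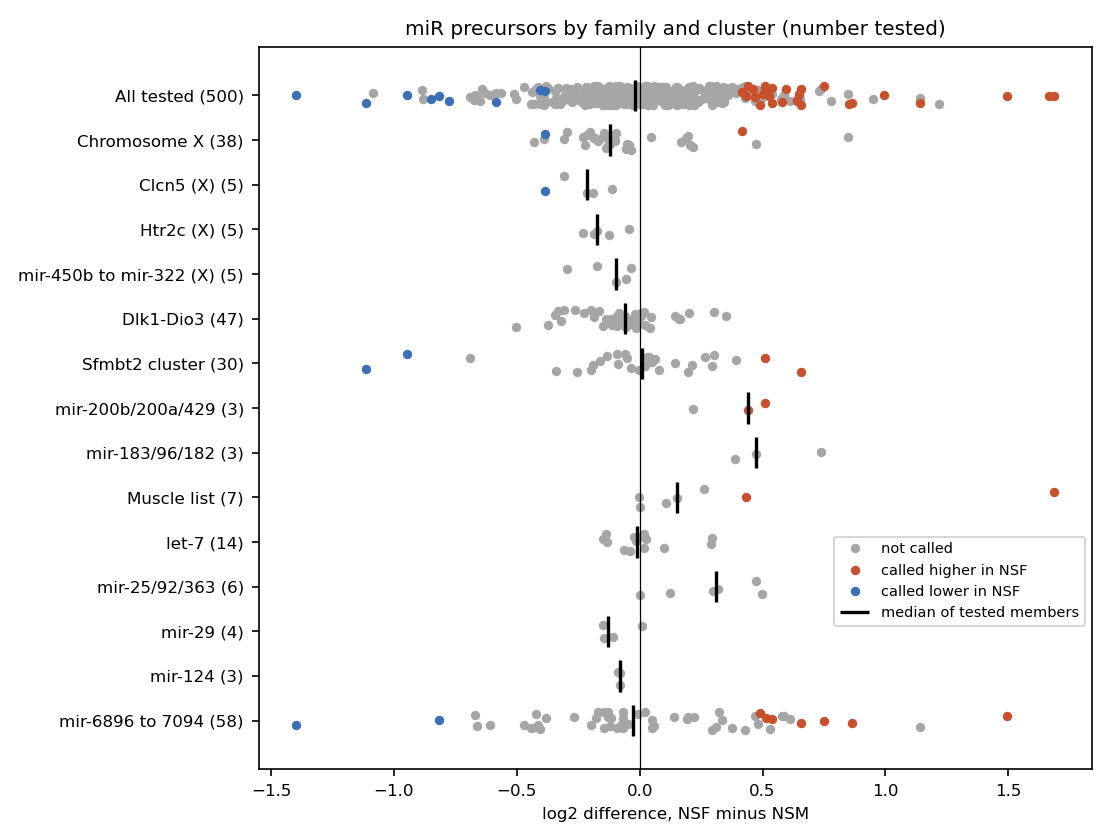
Log2 differences, NSF minus NSM, of the tested miRs in 15 groups, with 1 point per miR, called miRs colored and the median as a vertical bar. The median of the 38 miRs placed on the X chromosome lies left of 0 at -0.12 and that of Clcn5 at -0.21. That of the cluster of mir-200b lies right of it at 0.44.

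The large cluster in introns of Sfmbt2, a Polycomb group gene on chromosome 2, had 4 called miRs among 30 tested (13.3%, against 7.60% of all tested miRs). Of the 30 tested precursors from mir-466f-1 to mir-669h, mir-669c and mir-669l were called higher and mir-669b and mir-466n lower, and the median was 0.01. mir-669c, at chr2:10430923-10431031, had 484, 479 and 417 CPM in NSM and 591, 709.01 and 668 CPM in NSF. mir-669b had 2.82, 3.83 and 4.76 CPM in NSM and 0.846, 2.32 and 2.96 CPM in NSF. The groups of mir-669c did not overlap and those of mir-669b did. Sfmbt2 mRNA was called lower, with 5.53 to 6.82 CPM in NSM and 4.06 to 5.18 CPM in NSF. Members of these families are near copies of each other, so that the assignment of their reads is uncertain.

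The precursors numbered from mir-6896 to mir-7094 had 58 of 197 precursors tested, with 7 called higher, 2 lower and a median of -0.03, that is 15.5% called against 7.60% of all tested miRs. Among the called were mir-6934, mir-7010, mir-7059 and mir-6959, each with a mean under 10 reads, so that the share rests in part on low counts. mir-6900, the called member with the most reads, had 5.36 to 7.73 CPM in NSM and 8.76 to 10.1 CPM in NSF.

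Some miRs known from brain could not be compared. All 40 placed precursors that overlap a listed precursor on the opposite strand missed the read filter, and 39 of them had at most 2 reads in every library. Of the 1003 other placed precursors, 442 were tested and 374 had at most 2 reads in every library. The 40 include mir-338 and mir-219a-2 of oligodendrocytes, mir-451a of red cells, mir-126a of endothelium, mir-142 of blood cells, and mir-24-1 and mir-24-2. The cause was not tested, and the counts do not show whether these miRs were present.

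The sex difference of the 38 called miRs was compared with that between SF and SM. The sign was the same for 25 of 38, against 265 of the 462 tested miRs that were not called, and 3 were called again in the same direction (mir-200b, mir-200a and mir-6934), whereas mir-6959 was called in the opposite one. The median log2 difference of the miRs called higher was 0.58 in unstressed and 0.07 in stressed mice, and that of the miRs called lower was -0.82 and -0.03. As the miRs were chosen by their difference in unstressed mice, a smaller one in other libraries follows in part from the choice.

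The difference between the sex differences was called for 34 miRs (6.80%), and only that of mir-206 had an adjusted p under 0.05 (0.200% of miRs; 0.0131, limma with Benjamini-Hochberg). mir-206 had 165, 139 and 111 CPM in SM and 97.6, 147 and 146 CPM in SF. The stressed groups overlapped, every stressed library lay above every NSM library, and SM 1 exceeded the lowest NSF library. SF differed from SM by -0.11 ± 0.20 on the log2 scale. The test shares the unstressed libraries with the comparison that put mir-206 first, so that it is not independent of it.

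**Figure D5:**
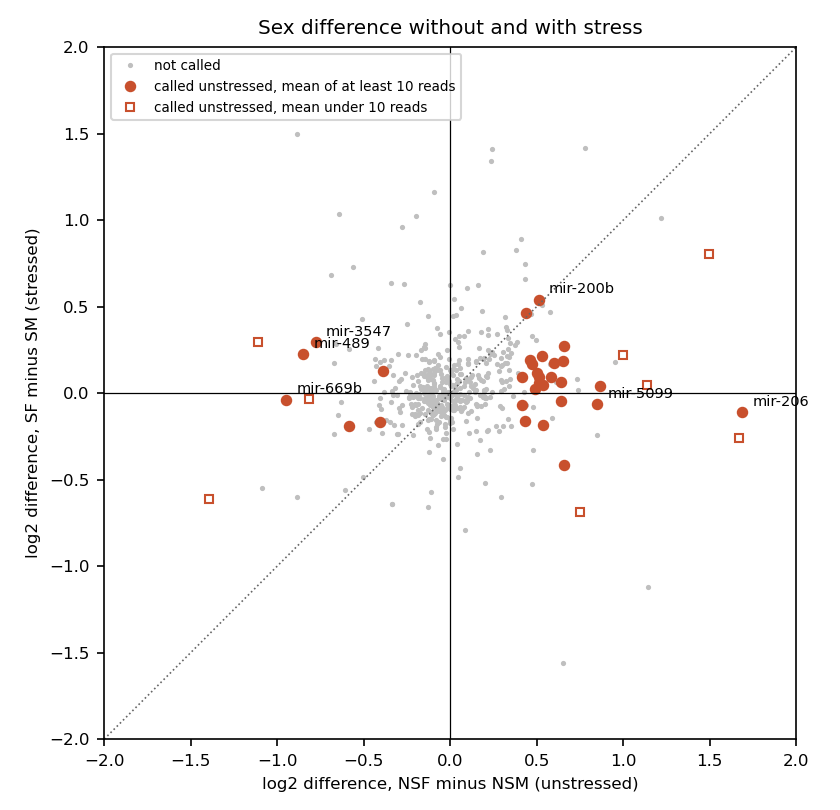
Log2 differences of the 500 tested miRs, NSF minus NSM on the horizontal and SF minus SM on the vertical axis, with the called miRs in color and open squares for those with a mean under 10 reads. mir-206 lies far right at 1.69 and near 0 on the vertical axis at -0.11, and mir-200b lies near the dotted line of equal differences.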

How the data were processed

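Per the labels and methods, the authors enriched RNA under 200 bases, trimmed adaptors, dropped inserts shorter than 16 nucleotides, aligned to mm9 with Bowtie and summarised with HTSeq. The deposited values are raw counts under miRBase precursor names, whereas the methods name the mature annotation. The deposited mRNA values, also counts, came from TopHat2 and HTSeq on NCBIM37. The treatment of reads with several matches and the strand setting are not given in the sources used here.

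A miR was tested if over 5 reads of it were present in 80% or more of the libraries of any group. After TMM scaling and voom, limma 3.58.1 was fitted in R 4.3.3 with edgeR 4.0.16, with one mean per group over all 12 small RNA libraries, and the mRNA likewise. Calls needed an unadjusted p under 0.05 and 1.3-fold, and p-values measure the spread between pools. With 3 pools a side, exact permutation of one miR cannot pass 0.05. The steps were tested on simulated data.

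RefSeq hairpins were matched to NCBIM37 with BLAST 2.17.0 (921 precursors), and 122 more were placed by GENCODE name. Of the 1180 precursors 997 had a RefSeq entry. Clusters join precursors within 10 kb on one strand with at least 3 tested. Named miRs are those called with a mean of at least 10 reads, by p, up to 30, those with an adjusted p under 0.05, the called and up to 3 most abundant members of each list and the 10 most abundant miRs. Other members are named after their values were seen. The members and lists were chosen with earlier results of these data known, and the muscle, ciliary and epithelial mRNAs after the miRs were seen.

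Alternatives were 3 other filters, 3 other scalings, edgeR's quasi-likelihood test, DESeq2 1.42.0, the 6 libraries alone, quality weights, a replicate block, thinned counts and leaving out each library. Fits without a stressed library were used for the interaction only. The fits with Slc17a7 and with NSF 2 alone were chosen after the data were seen.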

Additional observations from a re-analysis of the deposited data

Results flagged for a closer look

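The sex difference of mir-206 differed between unstressed and stressed mice, with an interaction of -1.80 on the log2 scale (SE 0.30, adjusted p = 0.0131, limma with Benjamini-Hochberg), from 1.69 in NSF against NSM to -0.11 in SF against SM. It was the only named miR for which this difference had an adjusted p under 0.05, and the unstressed libraries that enter the interaction are the ones by which mir-206 was named.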

How the results depend on the processing

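The 30 named called miRs kept their direction in all 596 values under the alternatives, which reuse the libraries that chose them, and 143 of these lost the call. Of the 30, mir-206, mir-5099 and mir-1981 kept theirs in each setting run. Instead of 38 miRs, 60 were called when at least 1 read in any library sufficed, 23 by DESeq2, 2 with the adjusted p in place of the unadjusted p and 81 without a minimum fold. Without each of the 6 unstressed libraries in turn the count was 29 to 45, with 21 to 29 of the 38 among them. Instead of 5, an adjusted p under 0.05 was found for 3 miRs under that loosest filter, 12 by DESeq2, 11 with quality weights and 1 to 9 without each unstressed library. It was 1 without NSM 1, NSM 3 or NSF 2, 2 without NSF 3 and 9 without NSM 2. The interaction was called for 34 miRs, and for 60 under that filter, 18 with at least 10 reads in every library, 21 by DESeq2 and 25 to 38 without each of the 12 libraries. No host gene of X miRs was called in any fit. Thinning to the smallest library left 35 calls, 26 of them among the 38.

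Same-numbered NSM and NSF libraries correlated at 0.0800, -0.0441 and 0.110 in their deviations from the group means. Those with different numbers correlated at -0.151 to 0.0895. So few values cannot show whether the numbers pair the samples, and the main fit used no pairing. With the replicate block 42 miRs were called, 35 of them among the 38, as were 36 interactions.

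Depth limits the 68 tested miRs with a mean under 10 reads, of which 8 were called.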
